A study of Homo sapiens with 6 samples.

Results

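The 8 genes described here carry the first, shared steps of branched-chain amino acid (BCAA) breakdown. They are *BCAT1* and *BCAT2*, the transaminases, *BCKDHA*, *BCKDHB*, *DBT* and *DLD*, the subunits of the branched-chain α-keto acid dehydrogenase (BCKDH) complex, *BCKDK*, its kinase, and *PPM1K*, its phosphatase. They were chosen by gene symbol, and all 8 were found once each among the 31369 genes of the count table. All 8 passed the filter on low counts and were among the 15878 genes tested.

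RNA was sequenced from HK-2 cells, a long-established immortalised line derived from the proximal tubule of the human kidney, in 3 control samples (NC) and 3 samples overexpressing *PPM1K* (OE). The genotype entry of NC reads WT and that of OE reads PPM1K overexpress. All 6 samples share the entry Chronic kidney disease under treatment and the time day 10, while the cell line entry carries a different number in every sample beside one and the same HK-2 cell type. OE cells received a *PPM1K* plasmid by lipid transfection, and the promoter of the plasmid, the length of its insert and what the NC cells received are not given in the sources used here. The sample titles name a control and a PPM1K short hairpin instead, which goes against the genotype entries. *PPM1K* was about 83.6-fold higher in the libraries labelled overexpress, so the genotype entries were followed. The paper speaks of biological replication, but neither it nor the labels say whether the 3 samples of a group came from separate cultures or transfections, and p-values measure only the spread between these samples.

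Leucine, isoleucine and valine are first stripped of their amino group by a BCAA transaminase, which is cytosolic in the case of BCAT1 and mitochondrial in the case of BCAT2. This step is reversible. The keto acids formed are then decarboxylated irreversibly by BCKDH, a mitochondrial complex in which E1 (a tetramer of the α subunit BCKDHA and the β subunit BCKDHB, using thiamine diphosphate) removes the carboxyl group, E2 (DBT, carrying lipoate) transfers the acyl group to coenzyme A and E3 (DLD) reoxidises the lipoate. BCKDK phosphorylates the E1α subunit and switches the complex off, and PPM1K, a metal-dependent phosphatase of the mitochondrial matrix, removes the phosphate and switches it on. The state of the complex is therefore set by phosphorylation as well as by the amount of its parts, and RNA counts show only the latter at the level of the transcript.

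Total counts were 34635770 to 39850802 per sample. NC replicate 2 stood apart, with 26478 genes detected against 22094 to 22913 in the other 5 samples, so values of the 8 genes whose call changes without it are given below. In the paper's tally of mapped reads, this sample also had the largest shares of intronic, intergenic and antisense reads. The line was checked against its markers. None of 12 proximal tubule markers reached a mean CPM of 1 (counts scaled to library size, so that samples can be compared), and *SLC5A1*, *SLC22A6* and *SLC22A8* were at 0 or not listed, while all 8 general renal epithelial markers were above 1 CPM. The summed fibroblast markers were 17.7 to 18.99 CPM in NC and 7.66 to 8.01 in OE, with 2 of 7 above 1 CPM, and the summed endothelial markers 5.12 to 6.53 and 7.03 to 8.27, with 3 of 6 above 1 CPM. The podocyte markers summed to 89.0 to 91.0 and 74.8 to 80.2 CPM, with 2 of 5 above 1, and the proximal tubule markers to 2.49 to 3.87 and 1.81 to 2.36. No leukocyte marker reached 1 CPM. The renal epithelial sum was 3845 to 4138 CPM in NC and 3126 to 3340 in OE. The part of these markers in the results below was not tested.

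At an adjusted p under 0.05 in edgeR's quasi-likelihood test and a fold change above 2, 2 of the 8 genes, *PPM1K* and *BCAT1*, were higher in OE, beside 1.73% of all tested genes. By the same rule with a fold below 0.5, 0 of 8 were lower, beside 3.79% of all tested genes. Without a limit on the fold, the same 2 were higher, beside 24.9% of all tested genes, and *BCKDHB* and *DBT* were lower, beside 23.7%. The groups did not overlap in CPM for 5 of the 8 genes, beside 55.3% of all tested genes. *BCKDK*, *BCKDHA*, *DLD* and *BCAT2* did not pass. *PPM1K* is counted among the higher genes and among those that did not overlap. Its rise was set by the plasmid and was used to choose between the labels, so its call is no finding about the pathway. Apart from it, *BCAT1* was the only one of the 8 genes called higher. In bulk samples a change in the number of cells that hold a transcript and a change in the amount per cell cannot be told apart.

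**Figure D1:**
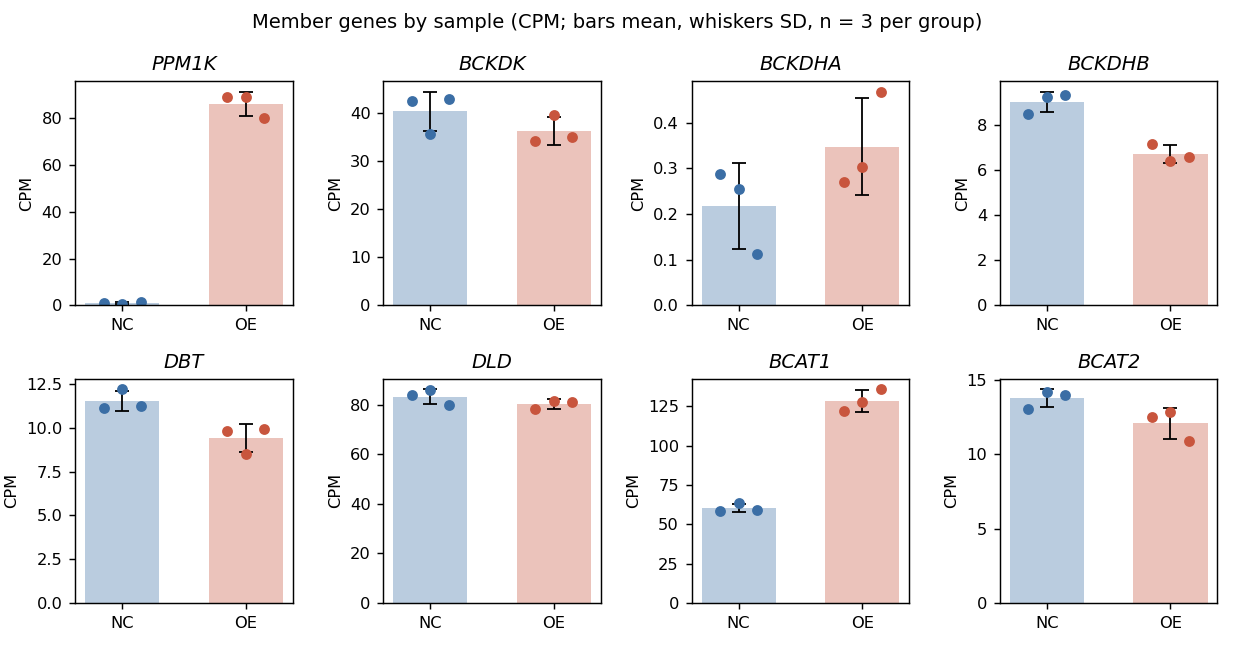
CPM of each of the 8 genes, with a point for each sample, bars for the group mean and whiskers for the SD (n = 3 per group). The axes start at 0 and differ between panels; *PPM1K* and *BCAT1* lie higher in every OE sample, *BCKDHB* and *DBT* lie lower in every OE sample, and the groups overlap for *BCKDK*, *BCKDHA* and *DLD*.

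*PPM1K* (ENSG00000163644.15, chr4:88257620-88284769, minus strand, GRCh38) was among the least abundant tested transcripts in NC. Its counts were 37, 19 and 53 in NC replicates 1 to 3 and 3294, 3531 and 2919 in OE replicates 1 to 3. The lowest OE sample lay far above the highest NC sample, and within NC the largest count was more than the double of the smallest. In CPM the gene was at 1.03 ± 0.468 (SD, n = 3) in NC and at 86.3 ± 5.14 (SD, n = 3) in OE. The fold change was 83.6 with a 95% interval of 68.9 to 101.5 (log2 6.39, standard error 0.13, adjusted p = 1.1e-18 by edgeR). By FPKM, counts per length and depth, the gene moved from the 3.29th percentile of the tested genes in NC to the 73.5th in OE. Counts per gene do not separate plasmid transcripts from those of the cells' own *PPM1K*. The annotated exons of the gene span 11371 bases. The main transcript has 7 exons with 6309 bases, of which 1116 are coding. The length implied by dividing the deposited counts by the deposited FPKM was 12103 bases, close to the whole exonic span, and a *PPM1K* transcript shorter than that span gets a lower FPKM than its own length would give.

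*BCKDK* (ENSG00000103507.14, chr16:31106107-31112791, plus strand) encodes the kinase that opposes PPM1K. Its CPM was 42.5, 35.6 and 42.9 in NC and 34.2, 39.6 and 35.1 in OE. The groups overlapped, because OE replicate 2 lay above NC replicate 2. The log2 fold change was −0.15 (standard error 0.08, 95% interval −0.31 to 0.01, adjusted p = 0.11 by edgeR), which leaves room for folds between 0.806 and 1.005. Without NC replicate 2 it was −0.23 with an adjusted p of 0.017, and without OE replicate 2 it was −0.22 with an adjusted p of 0.045 (edgeR). The gene shares no exonic base with another annotated gene.

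The FPKM ratio of *BCKDK* to *PPM1K* within a sample was 113.7, 209.0 and 85.2 in NC and 1.13, 1.30 and 1.28 in OE. The kinase transcript was thus far above the phosphatase transcript in every NC sample and only slightly above it in every OE sample. The log2 ratio changed by −6.68 ± 0.39 (SE). An exact permutation test, two-sided, gave p = 0.1, which 3 against 3 cannot go below, and 0.12 after adjustment over the 6 ratios compared. Per kilobase of coding sequence the order in OE was the reverse, with *PPM1K* at 77.3 CPM and *BCKDK* at 29.4, so which of both stood higher in OE depended on the length used.

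**Figure D2:**
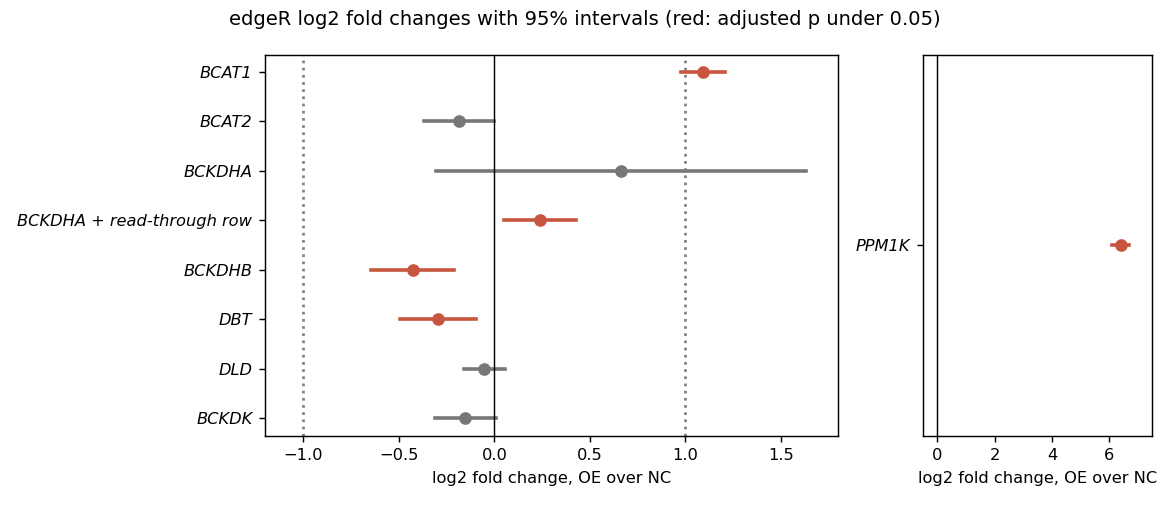
edgeR log2 fold changes of OE over NC with 95% intervals (n = 3 per group), red where the adjusted p was under 0.05, with dotted lines at a 2-fold change and *PPM1K* on its own wider axis. *BCAT1* lies at 1.09, *BCKDHB* and *DBT* lie below 0, and the interval of the *BCKDHA* row alone is the widest.

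*BCKDHA* (ENSG00000248098.12, chr19:41397808-41425002, plus strand) encodes E1α, the subunit that carries the regulatory phosphate. Its own row held 10, 9 and 4 counts in NC and 10, 12 and 17 in OE. These are the lowest counts of the 8 genes in every sample, and they overlapped between the groups. The log2 fold change was 0.66 with a 95% interval of −0.30 to 1.63 (standard error 0.46, adjusted p = 0.25 by edgeR), so at this depth neither a rise to 3.10-fold nor a fall to 0.810-fold lay outside the interval. In the annotation, a protein-coding read-through gene on the same strand, CTC-435M10.3 (ENSG00000255730.5, chr19:41350853-41425001), starts upstream and runs through the *BCKDHA* exons.

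The main *BCKDHA* transcript has 9 exons, of which 8 are shared with the 10-exon transcript of the read-through gene. Of its 1335 coding bases, 1227 (91.9%) are shared, and 119 of its 1742 transcript bases are its own. The transcripts part before the second *BCKDHA* exon (chr19:41410637-41410816). The lines below are shown because only a read across this junction, or one that lies in an unshared exon, tells them apart. They give the 30 coding bases on either side of the junction on the plus strand of GRCh38, and the capitals mark the shared second exon. The left side of the *BCKDHA* line is chr19:41397906-41397935, and that of the read-through line is chr19:41378490-41378519.
BCKDHA junction: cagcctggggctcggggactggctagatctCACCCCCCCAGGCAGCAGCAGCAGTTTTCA
Read-through junction: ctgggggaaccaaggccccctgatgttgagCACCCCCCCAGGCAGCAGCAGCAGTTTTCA
All bases to the right of the junction are the same, and what follows in both transcripts is the sequence of E1α.

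The read-through row held 852, 652 and 892 counts in NC and 954, 1099 and 949 in OE. Every OE sample lay above every NC sample, and NC replicate 2 was the lowest. The *BCKDHA* row held only 0.989% ± 0.481 (SD, n = 3) of the counts of both rows in NC and 1.29% ± 0.405 (SD, n = 3) in OE. How reads in shared exons were assigned is not given in the sources used here, so the rows were also summed, an alternative chosen after the data had been seen. The sum was 24.8, 18.8 and 24.9 CPM in NC and 26.1, 28.1 and 26.6 CPM in OE. Its log2 fold change was 0.24 (standard error 0.09, 95% interval 0.05 to 0.43, adjusted p = 0.035 by edgeR). Without NC replicate 2 it fell to 0.12 with an adjusted p of 0.24, and without OE replicate 2 it was 0.21 with an adjusted p of 0.11 (edgeR). The read-through gene also shares 629 exonic bases with *TMEM91*, whose row held 14 to 33 counts.

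**Figure D3:**
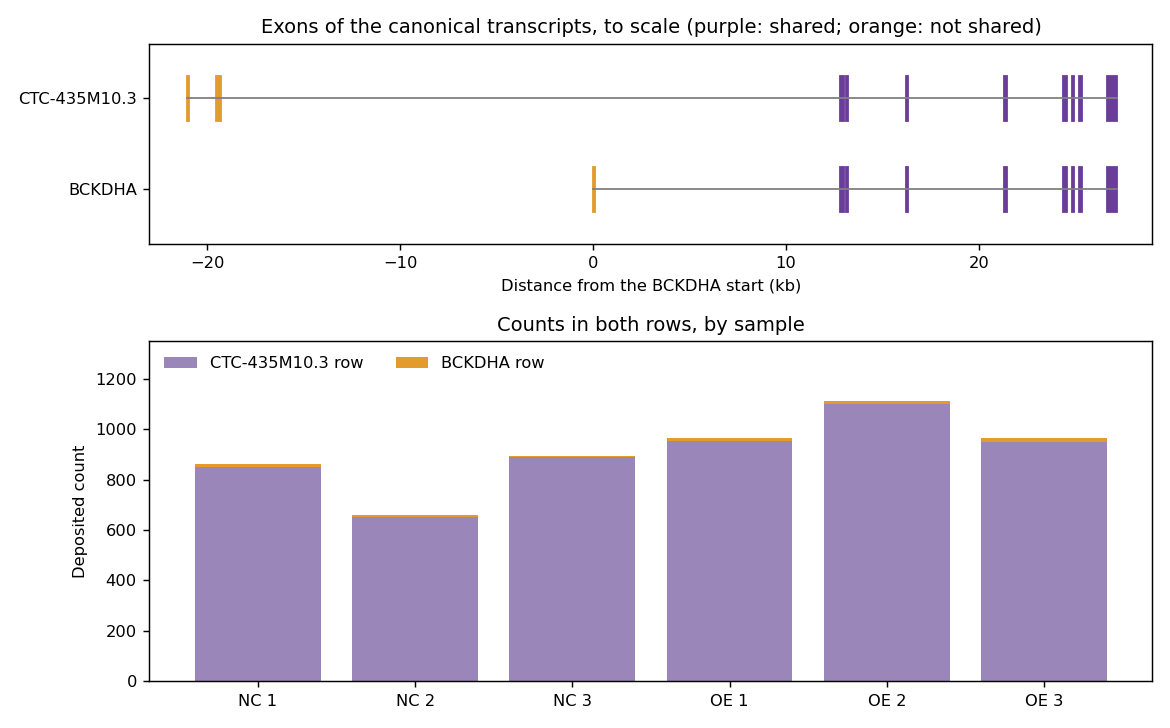
Top, exons of the canonical transcripts of *BCKDHA* and CTC-435M10.3 to scale, in kb from the *BCKDHA* start, with shared exons in purple and unshared ones in orange. Bottom, deposited counts of both rows stacked for each sample; 652 to 1099 counts stand in the read-through row and 4 to 17 in the *BCKDHA* row.

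*BCKDHB* (ENSG00000083123.15, chr6:80106647-80346270, plus strand) encodes E1β, the partner of BCKDHA in E1. Its CPM was 8.51, 9.26 and 9.32 in NC and 7.18, 6.40 and 6.58 in OE. Every OE sample lay below every NC sample. Expression fell to 0.744-fold with a 95% interval of 0.640 to 0.864 (log2 −0.43, standard error 0.10, adjusted p = 0.0018 by edgeR). The fall passed the test in all alternatives in which the gene was tested, with log2 fold changes of −0.47 to −0.26 and adjusted p of 0.00088 to 0.013 over the edgeR, DESeq2 and limma fits. No exonic base of the gene is shared with another annotated gene.

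*DBT* (ENSG00000137992.15, chr1:100186919-100249834, minus strand) encodes E2, the core on which the other subunits sit. Its CPM was 11.1, 12.2 and 11.2 in NC and 9.80, 8.50 and 9.91 in OE. The groups did not overlap, and NC replicate 2 was the highest and OE replicate 2 the lowest of the 6 samples. Expression fell to 0.816-fold with a 95% interval of 0.711 to 0.936 (log2 −0.29, standard error 0.10, adjusted p = 0.015 by edgeR). Without NC replicate 2 the log2 fold change was −0.25 with an adjusted p of 0.069, and without OE replicate 2 it was −0.22 with an adjusted p of 0.085 (edgeR), so the call rested on these samples.

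*DLD* (ENSG00000091140.14, chr7:107891162-107931730, plus strand) encodes E3, which BCKDH shares with the pyruvate and 2-oxoglutarate dehydrogenase complexes and the glycine cleavage system. Its FPKM was 15.32, 15.26 and 14.46 in NC and 14.09, 14.97 and 15.02 in OE. The groups overlapped, and the log2 fold change of −0.05 had the narrowest interval of the 8 genes, −0.16 to 0.06 (standard error 0.05, adjusted p = 0.43 by edgeR). A fall below 0.896-fold or a rise above 1.039-fold lay outside that interval. *DLD* shares 300 exonic bases (5.88%) with *LAMB1* on the other strand, whose row held 44436 to 52780 counts. The paper names a stranded library kit, but the strand setting of the counting is not given in the sources used here.

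Among the ratios of BCKDH subunits within a sample, that of *DBT* to *BCKDHB* in FPKM was 0.456, 0.459 and 0.422 in NC and 0.481, 0.463 and 0.529 in OE. The values did not overlap but came close, and the log2 ratio changed by 0.14 ± 0.07 (SE, exact two-sided permutation p = 0.1, adjusted 0.12), and by 0.08 without OE replicate 3. The log2 ratio of the *BCKDHA* row to *BCKDHB* changed by 1.16 ± 0.50, that of *DBT* to *BCKDHA* by −1.02 ± 0.44 and that of *DLD* to *BCKDHA* by −0.78 ± 0.43, all resting on the few counts of the *BCKDHA* row (exact two-sided permutation p = 0.1, 0.1 and 0.2). Without NC replicate 3, which had 4 counts in that row, they changed by 0.76, −0.66 and −0.43. With the counts of the read-through row added, the log2 ratio of *DBT* to *BCKDHA* changed by −0.54 and that of *DLD* to *BCKDHA* by −0.30. The count ratio of the summed rows to *BCKDHB* was 2.91, 2.03 and 2.67 in NC and 3.64, 4.39 and 4.04 in OE. This ratio rests mostly on the read-through row and is not scaled to gene length, so it does not give the proportion of the subunits. Every OE sample lay above every NC sample, and the log2 ratio changed by 0.68 ± 0.18 (SE, exact two-sided permutation p = 0.1, the smallest possible). It stayed between 0.52 and 0.78 with each sample left out in turn.

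*BCAT1* (ENSG00000060982.15, chr12:24810024-24949101, minus strand) encodes the cytosolic transaminase. Its counts were 2024, 2234 and 2135 in NC and 4509, 5046 and 4935 in OE. The lowest OE sample was about double the highest NC sample, with a small spread in both groups. Expression rose 2.13-fold with a 95% interval of 1.97 to 2.31, from 60.3 ± 2.78 to 129 ± 6.91 CPM (SD, n = 3 each, log2 1.09, standard error 0.06, adjusted p = 1.4e-12 by edgeR). The lower end of this interval lies just under the 2-fold limit, and on the log2(FPKM + 1) scale the gene was at 0.97, past the adjusted p but not past the fold. The gene shares 82 and 209 exonic bases with antisense genes whose rows held 0 to 2 counts.

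*BCAT2* (ENSG00000105552.15, chr19:48795062-48811029, minus strand) encodes the mitochondrial transaminase. Its CPM was 13.1, 14.2 and 14.0 in NC and 12.5, 12.8 and 10.9 in OE. The groups did not overlap, though OE replicate 2 came close to NC replicate 1. The log2 fold change was −0.19 (standard error 0.09, 95% interval −0.37 to −0.0032, adjusted p = 0.086 by edgeR), which does not pass, and without OE replicate 3 it was −0.12 (adjusted p = 0.27). Of the summed FPKM of both transaminases, *BCAT1* held 63.9%, 64.0% and 62.8% in NC and 79.5%, 79.8% and 83.2% in OE. The FPKM ratio of *BCAT1* to *BCAT2* rose from 1.69 to 1.78 in NC to 3.89 to 4.96 in OE. Its log2 change was 1.28 ± 0.12 (SE, exact two-sided permutation p = 0.1, adjusted 0.12).

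The promoter of *BCAT1* is shown because *BCAT1* was, beside *PPM1K*, the other of the 8 genes past the fold limit. The 250 bases before its start site (RefSeq, GRCh38.p14, chr12:24949102-24949351, minus strand) are given with the motif TGATGNAA in capitals, the core of the element bound by C/EBP and ATF factors in amino acid response genes. The motif was chosen with the results known and was searched on both strands.
BCAT1 promoter: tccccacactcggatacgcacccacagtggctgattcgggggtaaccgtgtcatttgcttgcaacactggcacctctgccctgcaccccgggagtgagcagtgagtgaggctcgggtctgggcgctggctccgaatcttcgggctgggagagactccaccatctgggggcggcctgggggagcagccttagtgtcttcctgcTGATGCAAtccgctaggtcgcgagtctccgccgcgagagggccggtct
The motif begins 48 bases before the start site, in 1 of the 5 *BCAT1* windows. It was found in 1270 of 35116 windows of 300 bases around all start sites (3.62%). None of the windows of *PPM1K*, *BCKDK*, *BCKDHA*, *BCKDHB*, *DBT* or *DLD* held it, and no window was given for *BCAT2*. *DLD* had 2 windows and the other genes without the motif 1 each. The share is per window, and a gene with more windows, as *BCAT1*, has more places for a match. A match is a description of letters and shows neither binding nor a cause.

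Compared per length by deposited FPKM, *DLD* was the most abundant of the 8 transcripts in both groups, at 15.01 in NC and 14.7 in OE. In NC it was followed by *BCKDK* (9.60), *BCAT1* (4.87), *BCAT2* (2.79), *BCKDHB* (2.04) and *DBT* (0.910), each step being kept in all 3 samples, and then by *BCKDHA* (0.0900) and *PPM1K* (0.0833), whose order was not kept. In OE the order was *DLD*, *BCAT1* (10.5), *BCKDK* (8.76), *PPM1K* (7.09), *BCAT2* (2.48), *BCKDHB* (1.54), *DBT* (0.757) and *BCKDHA* (0.147), kept in all 3 samples. FPKM divides by the whole exonic span, which runs from 2251 bases in *BCKDHA* to 11616 in *DBT*. Per kilobase of coding sequence, *DBT* and *BCKDHB* were at 7.96 and 7.68 CPM in NC and their order was not kept, and *BCAT1*, at 111 CPM, stood above *DLD*, at 52.5, in OE. Per kilobase of *BCKDHA* coding sequence the summed locus was at 17.1 ± 2.62 CPM in NC and 20.2 ± 0.777 in OE (SD, n = 3), above *BCKDHB* and *DBT*, while the *BCKDHA* row alone was at 0.163 and 0.260.

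**Figure D4:**
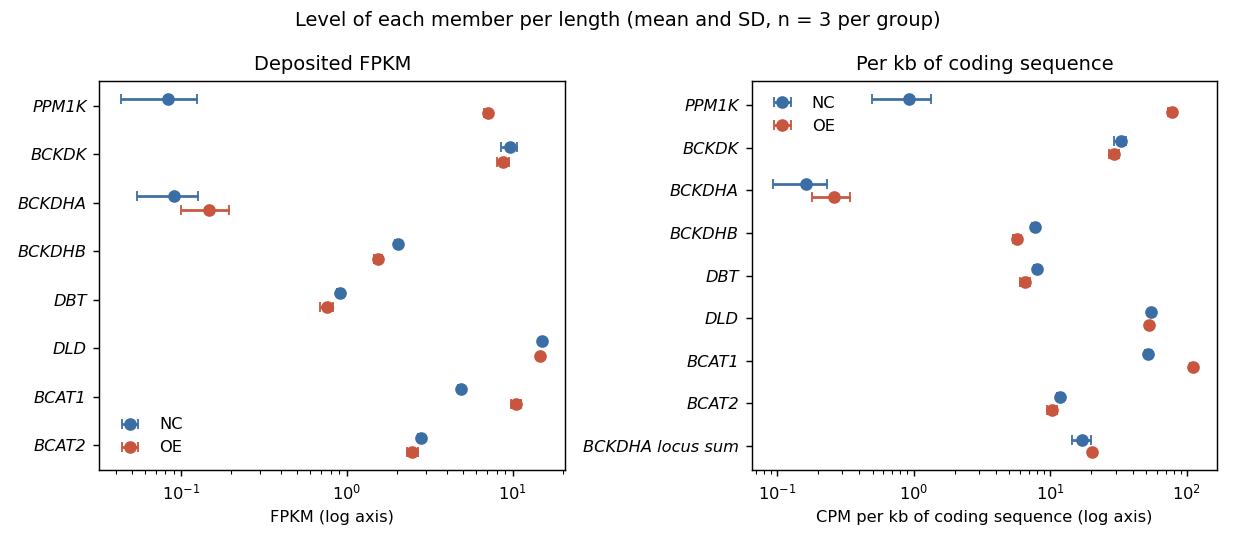
Mean and SD (n = 3 per group) of each gene on log axes, as deposited FPKM on the left and as CPM per kb of coding sequence on the right, where the summed *BCKDHA* locus is added. *PPM1K* and the *BCKDHA* row lie lowest in NC, and *PPM1K* and *BCAT1* shift furthest to the right in OE beyond their SD.

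The genes whose pattern over the 6 samples was most like that of a member were named by the root mean square difference of log2 CPM, each gene being centred on its own mean, among 11770 genes that averaged 100 counts or more. For *BCAT1* these were *TCEA1* (0.04), a transcription elongation factor, *MARCHF4* (0.05) and *PLPP3* (0.05). *TCEA1* was at 239.7 CPM in NC and 524.5 CPM in OE. For *PPM1K* no gene came near, and the least distant were *ULBP1* (1.90), *TRIB3* (2.08) and *ASNS* (2.09), the asparagine synthetase, which had log2 fold changes of 2.72, 2.35 and 2.33 (edgeR). For *BCKDK* they were *RND1* (0.02), *MPST* (0.04) and *PYGO1* (0.04). Like *BCKDK*, these did not pass (adjusted p = 0.44, 0.2 and 0.13 by edgeR). Likeness over 6 samples, picked from so many genes, is a description without a test and does not show joint regulation. By the paper's RT-PCR on the same RNA samples, *TRIB3* was instead significantly lower in OE, against the paper's own sequencing result.

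Downstream of BCKDH, the acyl-CoA products of the 3 amino acids are broken down by separate enzymes. Of 17 genes of these later steps, 9 fell and 2 rose at an adjusted p under 0.05 by edgeR, beside 23.7% and 24.9% of all tested genes. Past the fold limit 1 fell and 0 rose, beside 3.79% and 1.73% of all tested genes. The median log2 fold change was −0.21, beside −0.0032 over all tested genes. *ALDH6A1*, the methylmalonate semialdehyde dehydrogenase of valine breakdown, fell from 3.85 to 1.73 CPM (log2 −1.15, standard error 0.17, adjusted p = 8.1e-06 by edgeR). *ACADSB*, the dehydrogenase of the isoleucine branch, fell by 0.50 on the log2 scale, *HIBCH* of the valine branch by 0.44 and *ACAT1*, the thiolase that ends the isoleucine branch, by 0.36. *PCCB*, a propionyl-CoA carboxylase subunit, rose by 0.28. Without single samples, 7 to 9 genes fell and 1 to 3 rose.

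The complexes that share *DLD* with BCKDH had 10 tested genes of 11 listed, of which 4 fell and 1 rose, beside 23.7% and 24.9% of all tested genes. Past the fold limit 0 fell and 0 rose, beside 3.79% and 1.73%. The median log2 fold change was 0.03, and 0.0013 to 0.05 without single samples, with the same counts at the adjusted p alone. *DHTKD1*, the E1 of the 2-oxoadipate dehydrogenase, fell from 12.9 to 7.36 CPM (log2 −0.81, adjusted p = 4.5e-07 by edgeR). *OGDHL*, a 2-oxoglutarate dehydrogenase-like E1, fell by 0.64, *GLDC*, the glycine decarboxylase, by 0.63 and *PDHB*, the β subunit of pyruvate dehydrogenase E1, by 0.31 on the log2 scale. *PDHX*, which holds E3 in the pyruvate complex, rose by 0.25.

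The kinases and phosphatases of pyruvate dehydrogenase are the closest relatives in function of BCKDK and PPM1K. Of 7 tested, 4 fell and 0 rose, beside 23.7% and 24.9% of all tested genes, and the median log2 fold change was −0.33. The lower genes numbered 3 by DESeq2, with the replicate block and without NC replicate 1 or 2 or OE replicate 1 or 2, and the median was −0.20 without NC replicate 1. *PDK2* fell from 20.7 to 10.2 CPM (log2 −1.01, standard error 0.08, adjusted p = 3.4e-09 by edgeR) and *PDK4* from 14.4 to 6.85 CPM (log2 −1.07, standard error 0.09, adjusted p = 3.8e-09). Both fell past the fold limit and 0 of the 7 rose past it, beside 3.79% and 1.73% of all tested genes. The log2 fold change of *BCKDK* was −0.15. *PDP2*, a pyruvate dehydrogenase phosphatase, fell by 0.34 and *PDK1* by 0.33 on the log2 scale, the latter with overlapping groups and an adjusted p of 0.049 (edgeR). *PDPR*, the phosphatase regulator, was at −0.11 with an adjusted p of 0.15 (edgeR).

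Of 12 other PPM-family phosphatases tested, 4 rose and 3 fell, beside 24.9% and 23.7% of all tested genes, shares near the background. Past the fold limit 1 rose and 1 fell, beside 1.73% and 3.79% of all tested genes. The median log2 fold change was 0.14, and 0.0045 without OE replicate 3, and 2 genes were lower by DESeq2 and without NC replicate 2 or 3 or OE replicate 1 or 3. Both that passed the fold limit were scarce. *PPM1E* had 10, 11 and 5 counts in NC and 23, 20 and 23 in OE (log2 1.24, adjusted p = 0.014 by edgeR), and *PPM1J* had 14, 22 and 19 counts in NC and 6, 14 and 3 in OE (log2 −1.34, adjusted p = 0.02). *ILKAP* rose by 0.44, *PPM1A* by 0.26 and *PPM1G* by 0.21, and *PPM1D* and *PPM1N* fell by 0.52 on the log2 scale. None was near the change of *PPM1K*.

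Of 8 tested transporters of BCAA among 11 listed, 4 rose and 1 fell, beside 24.9% and 23.7% of all tested genes, and 2 rose past the fold limit, beside 1.73%. The counts at the adjusted p alone were the same without each single sample, and the median log2 fold change was 0.45, with a range of 0.41 to 0.61. *SLC7A5* and *SLC3A2*, the light and the heavy chain of the LAT1 exchanger of the plasma membrane, rose from 29.2 to 87.7 CPM (log2 1.58, standard error 0.06, adjusted p = 5.7e-15 by edgeR) and from 69.9 to 184.9 CPM (log2 1.40, standard error 0.05, adjusted p = 1.2e-14). *SLC6A15*, a sodium-coupled transporter, rose by 0.67 and *SLC25A44*, the mitochondrial BCAA carrier, by 0.51 on the log2 scale. *SLC43A2*, the LAT4 facilitator, fell by 0.37. *SLC7A5* has near-identical pseudogene copies, so its count is less certain.

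**Figure D5:**
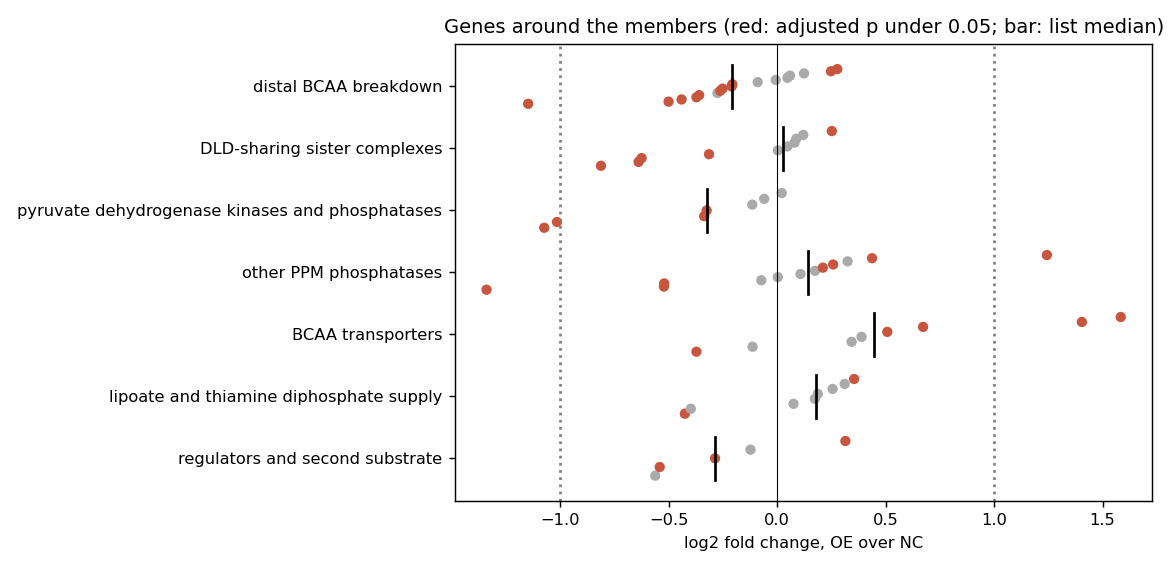
edgeR log2 fold changes of OE over NC for every tested gene of the 7 lists around BCKDH (points, red where the adjusted p was under 0.05, n = 3 per group), with a bar at each list's median and dotted lines at a 2-fold change. The median of the BCAA transporters lies at 0.45 and that of the pyruvate dehydrogenase kinases and phosphatases at −0.33, the latter moving to −0.20 without NC replicate 1.

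Of 8 genes that supply lipoate and thiamine diphosphate, the cofactors of E2 and E1, 1 rose, beside 24.9% of all tested genes, and the median log2 fold change was 0.18, with 0.12 without NC replicate 2. Without OE replicate 3, 2 rose. *LIAS*, the lipoate synthase, rose by 0.35 on the log2 scale (adjusted p = 0.0038 by edgeR). *SLC19A2* and *LIPT1* were at 0.26 and 0.19 and did not pass (adjusted p = 0.11 and 0.3 by edgeR). Among 5 tested genes of 7 listed as regulators of the pathway or as the second substrate of BCKDK and PPM1K, 2 fell and 1 rose, beside 23.7% and 24.9% of all tested genes, with a median of −0.29. *ACLY*, the ATP-citrate lyase that is this second substrate, fell from 189 to 130 CPM (log2 −0.54, standard error 0.05, adjusted p = 1.2e-08 by edgeR). *PPARA* fell by 0.29 (adjusted p = 0.046) and *MYC* rose by 0.31 (adjusted p = 7.4e-05), while *MLXIPL* and *PPARGC1A*, at −0.56 and −0.12, did not pass (adjusted p = 0.15 and 0.28). With any sample but NC replicate 3 left out, the regulator list had 1 lower gene. Of the 37 genes that the naming rule picked from these 7 lists, 17 share exonic bases with another annotated gene. Overlaps of any size on either strand are included, and the counts of these genes may be less certain for that.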

How the data were processed

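RNA was measured in 3 NC and 3 OE samples, grouped by the genotype entries. Per the paper's methods, the authors trimmed reads with FASTX-Toolkit, aligned them to GRCh38 with HISAT2 and used uniquely mapped reads. The submitters' processing notes list GRCh38, mm10 and HISAT2. The annotation release, the counting program and its strand setting are not given in the sources used here. The authors deposited raw counts for 31369 genes, and deposited FPKM for 30896 genes to 2 decimals.

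CPM and tests came from the counts in edgeR 4.0.16 (R 4.3.3), with filterByExpr, TMM and the quasi-likelihood F-test, which is two-sided, and Benjamini-Hochberg adjustment over 15878 genes. Standard errors were derived from the F statistic. Alternatives were DESeq2 1.42.0, limma 3.58.1 on log2(FPKM + 1) and log2(FPKM + 0.1), other scalings and filters, a replicate block and each sample left out. Samples with the same number did not deviate together (correlations of −0.0663 to −0.00319), so the numbers were not taken to pair samples. Between replicates, counts differed beyond sampling noise, with a mean chi-square per gene of 5.13 to 11.8. At this depth counting error is small except for *BCKDHA*, *PPM1K* in NC and other scarce genes.

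Coordinates and overlaps came from GENCODE release 44, which held 99.8% of the gene identifiers, promoters from RefSeq. Genes named are the 8 members, from each pathway list up to 5 genes with the smallest adjusted p and all past the fold limit, and the 3 genes most like *PPM1K*, *BCAT1* and *BCKDK*. Members and lists were chosen with earlier results of these data known. *TMEM91*, *LAMB1* and CTC-435M10.3 were named after their values were seen. No set test was run. Some results picked by these rules are not reported here. RT-qPCR and western blots were not analysed here. Figures were drawn with matplotlib 3.10.9.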

Additional observations from a re-analysis of the deposited data

How the results depend on the processing

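*PPM1K* and *BCAT1* stayed higher past the adjusted p in every alternative run, at log2 2.90 to 6.75 and 0.97 to 1.13, the lowest values being on the log2(FPKM + 1) scale, where *BCAT1* missed the fold limit and 1 gene was higher past it, with and without the filter. *BCKDHB* stayed lower in every alternative. With upper quartile scaling 4 genes were lower, since *BCKDK* (−0.19, adjusted p = 0.045 by edgeR) and *BCAT2* (−0.22, adjusted p = 0.041) passed. In each limma fit, on log2(FPKM + 1) with or without the filter and on log2(FPKM + 0.1), 1 gene was lower. *DBT* was −0.12 there without the filter (adjusted p = 0.22) and was not tested with it. *BCKDHA* was not tested in the filtered limma fits or with at least 10 counts in every sample, and the summed rows gave 0.24 (adjusted p = 0.035 by edgeR). The log2 ratio of *BCKDK* to *PPM1K* changed by −5.45 from NC to OE with 0.1 added to the FPKM. Leaving out single samples gave log2 fold changes of −0.23 to −0.10 for *BCKDK*, −0.34 to −0.22 for *DBT*, −0.23 to −0.12 for *BCAT2*, −0.08 to −0.03 for *DLD*, 0.35 to 0.91 for the *BCKDHA* row and 0.12 to 0.31 for the summed rows. In these fits 2 genes were lower each time, *BCKDK* in place of *DBT* without NC replicate 2 or OE replicate 2. The cause was not tested.

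With the replicate block, *BCKDHB* was at −0.43 (adjusted p = 0.0045 by edgeR), *DBT* at −0.29 (adjusted p = 0.03), *PPM1K* at 6.39 and *BCAT1* at 1.09, and no call on the 8 genes changed. In the lists, the block and DESeq2 each gave 1 higher and 8 lower genes of distal BCAA breakdown, 3 lower pyruvate dehydrogenase kinases and phosphatases and 1 lower regulator, and DESeq2 gave 3 higher and 2 lower PPM phosphatases. Of 6 samples, 0 correlated best with their own number. Over all tested genes, the scalings gave median log2 fold changes of −0.0412 to 0.00268. A permutation test of 3 against 3 cannot go below p = 0.1.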
